A study of Mus musculus with 34 samples.

Results

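The genes described here are the growth factors that act through the epidermal growth factor receptor (EGFR) and the hepatocyte growth factor receptor MET, with their receptors and one inhibitor of EGFR. They were taken from the table of gene counts by symbol, and all 10 were found among its 78298 genes and were among the 14980 genes tested. The ligands are Hgf (ENSMUSG00000028864), Areg (ENSMUSG00000029378), Hbegf (ENSMUSG00000024486), Tgfa (ENSMUSG00000029999) and Btc (ENSMUSG00000082361). The receptors are Egfr (ENSMUSG00000020122), Erbb2 (ENSMUSG00000062312), Erbb3 (ENSMUSG00000018166) and Met (ENSMUSG00000009376), and the inhibitor is Errfi1 (ENSMUSG00000028967). RNA was sequenced from whole livers of 8- to 12-week-old male C57/Bl6 mice after partial hepatectomy (PHx), a resection of 70% of the liver, or from untreated mice at 0 hours. SIRTintKO mice carry floxed Sirt1 and a Cre driven by the Villin promoter, which is active in intestinal epithelium, and their wild-type (WT) littermates carry floxed Sirt1 without Cre. The libraries were 6, 6 and 4 from WT and 6, 5 and 7 from SIRTintKO livers at 0, 6 and 24 hours, labeled as biological replicates. There was no sham operation, and the untreated libraries bear numbers from a series of their own, so handling of that series and the effect of PHx cannot be told apart.

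EGFR and MET are receptor tyrosine kinases of hepatocytes, and both are known to drive hepatocyte entry into the cell cycle after liver resection. Areg (amphiregulin), Hbegf, Tgfa and Btc (betacellulin) encode ligands that are made as membrane proteins, are released by cleavage, and bind EGFR, in the case of Hbegf and Btc also its relative ERBB4. Hgf encodes the ligand of MET, which in liver is made mainly by stellate and other non-parenchymal cells, and Errfi1 (MIG6) encodes a protein that binds active EGFR and blocks its kinase.

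Total counts per library were 14892122 to 23480492, and values are given as CPM, counts scaled to a common library size with TMM factors. Hepatocyte markers were present in every library, with Alb at a mean of 35800 CPM, while the intestinal transcription factors Cdx1 and Cdx2 were at 0 in all 34. Of the other 3 intestinal markers, Fabp2 (mean 55.3 CPM) and Lgr5 (1.97 CPM) were at 0 in no library and Vil1 in 4, and the 5 summed to 26.2 to 120 CPM in all groups but SIRTintKO at 24 hours, where they reached 308 CPM in library 2. Among the 24-hour libraries, 3 stood apart on the first principal component (40.7% of the variance). WT libraries 3 and 4 and SIRTintKO library 5 lay at -8, -17.6 and 8.1, against 49.7 to 95.9 for the other 8, 11.1 to 39.1 for the 6-hour libraries and -78.2 to -51 for the 0-hour libraries. Changes from 0 to 24 hours and differences between genotypes at 24 hours are therefore given with and without these 3. Without them, WT libraries 1 and 2 alone make up the WT group at 24 hours. An adjusted p for that group then rests on 2 libraries and on an estimate of spread shared with the other groups. In SIRTintKO livers at 6 hours, libraries 2 and 3 were nearest to each other. They lay at -25.9 and -17.1 on the second component, where the other 9 libraries at 6 hours lay between -52 and -37.6. In the order of the library names in the labels these 2 follow one another, as do the 3 that stood apart at 24 hours. What this order reflects was not tested.

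The regions just upstream of the members' transcription starts are shown for those members whose levels the results turn on. RefSeq promoter sequences (GRCm38.p6, a different build from the GRCm39 of the counts) were matched for 8 of the 10 genes. Of each, the 250 bases before the start are considered. They were searched on both strands for a cAMP response element (CRE), spelled TGACGTCA. The AP-1 site searched was TGANTCA. The other motifs were the TATA box (the letters TATAAA), the GC box (the letters GGGCGG) and the CArG box of serum response factor, and no 2 of these motifs overlapped in the windows shown, other than 2 GC boxes of Errfi1 that share letters. Capitals mark every match on either strand, and the shown strand is that of the gene. Areg (chr5:91139349-91139598, plus strand) and the downstream of the 2 Errfi1 starts (chr4:150854820-150855069, plus strand) carry both a CRE and a TATA box.
Areg: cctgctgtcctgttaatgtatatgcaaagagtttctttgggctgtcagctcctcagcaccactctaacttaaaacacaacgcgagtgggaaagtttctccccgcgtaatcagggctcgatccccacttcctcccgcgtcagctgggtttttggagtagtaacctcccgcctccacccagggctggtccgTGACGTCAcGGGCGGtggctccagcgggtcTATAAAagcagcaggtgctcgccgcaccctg
Errfi1: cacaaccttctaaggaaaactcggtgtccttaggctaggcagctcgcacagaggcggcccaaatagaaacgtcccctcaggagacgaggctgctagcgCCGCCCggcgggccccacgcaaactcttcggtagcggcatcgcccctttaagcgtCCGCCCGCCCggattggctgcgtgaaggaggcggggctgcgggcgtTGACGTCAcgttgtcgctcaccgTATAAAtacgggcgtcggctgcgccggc
The CRE begins 61 bases before the Areg start and 51 bases before this Errfi1 start, and the TATA box 31 and 28 bases before. The bases after the start were found in an annotated transcript for Areg, but not for either Errfi1 start or for Tgfa. Distances to the Errfi1 start are therefore less certain. The upstream Errfi1 start had none of the motifs searched. Among 32851 RefSeq promoters of the same length, 1.55% held a CRE and 12.4% a TATA box, so this pairing of letters in these 2 windows is a description of them and not a count of bound sites. Neither motif was found in the windows of 2 other ligands and of the receptor Egfr. These are Tgfa (chr6:86194972-86195221, plus strand), Btc (chr5:91402995-91403244, minus strand) and Egfr (chr11:16751953-16752202, plus strand).
Tgfa: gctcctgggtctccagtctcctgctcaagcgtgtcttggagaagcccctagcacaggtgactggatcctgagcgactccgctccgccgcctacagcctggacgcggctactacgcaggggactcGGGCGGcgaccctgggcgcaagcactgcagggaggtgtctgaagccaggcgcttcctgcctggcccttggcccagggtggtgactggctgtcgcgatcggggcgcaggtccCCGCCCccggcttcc
Btc: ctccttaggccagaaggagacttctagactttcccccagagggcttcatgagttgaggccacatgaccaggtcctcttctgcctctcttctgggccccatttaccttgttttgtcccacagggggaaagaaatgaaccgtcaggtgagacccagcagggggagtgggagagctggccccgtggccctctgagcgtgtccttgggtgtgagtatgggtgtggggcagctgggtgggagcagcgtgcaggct
Egfr: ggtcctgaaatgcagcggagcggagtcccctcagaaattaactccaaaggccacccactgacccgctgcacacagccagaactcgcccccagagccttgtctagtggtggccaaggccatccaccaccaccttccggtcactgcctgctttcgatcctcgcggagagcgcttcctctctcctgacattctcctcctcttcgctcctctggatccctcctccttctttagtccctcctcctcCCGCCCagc
A GC box, which 32.7% of all promoters held, was found at Tgfa and at Egfr but not at Btc. An AP-1 match, held by 6.75% of all promoters, was found in these windows only upstream of Met, and no window of these 8 genes held a CArG box (1.47% of all promoters). The 2 Hgf entries held none of the motifs searched, and Hbegf and Erbb3 promoters were not analysed here. Areg and Btc lie beside each other among the protein-coding genes of chromosome 5, in the order Epgn, Ereg, Areg, Btc, all of which encode EGFR ligands.

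Levels between genes were compared per kilobase of exon, since CPM grows with transcript length. In untreated WT livers the inhibitor was the most abundant, with Errfi1 at a mean of 304 CPM per kb, followed by Egfr at 50.6, Erbb3 at 16.2 and Met at 5.31 CPM per kb. The ligands were lower, with Tgfa at 2.3, Btc at 0.259, Hgf at 0.253, Hbegf at 0.161 and Areg at 0 CPM per kb. Erbb2, a receptor that binds no ligand and pairs with the other ErbB receptors, was at 0.153 CPM per kb. Egfr, Erbb3, Met and Erbb2 kept this order of group means in all 6 groups.

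**Figure D1:**
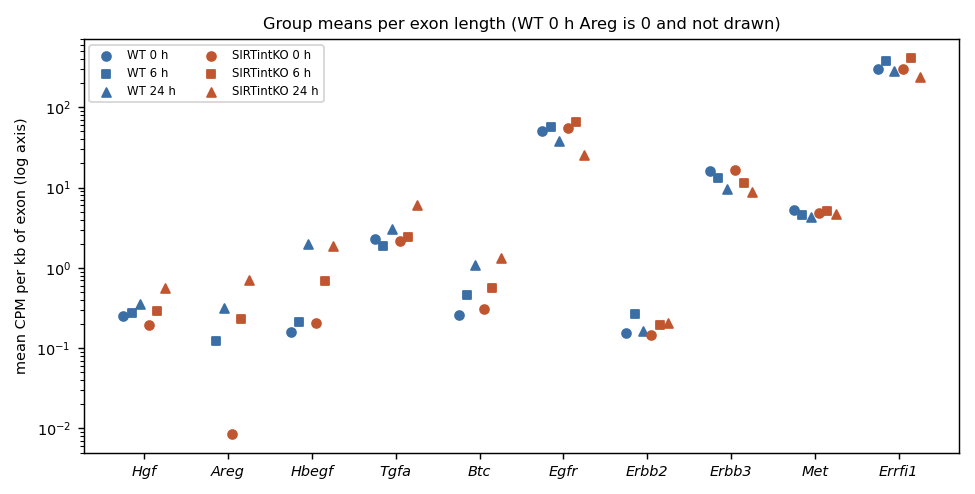
Mean level of each gene in each of the 6 groups, in CPM per kilobase of exon on a log axis (blue WT, rust red SIRTintKO, with circles at 0 hours, squares at 6 hours and triangles at 24 hours, and Areg in untreated WT livers not drawn because it is 0). Errfi1 lies at 236 to 409 and Egfr at 25.3 to 65.5 CPM per kb, while no ligand exceeds 6.03.

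At 24 hours after PHx all 5 ligand transcripts were higher in SIRTintKO livers than at 0 hours, and 3 of them, Areg, Hbegf and Btc, were higher in WT livers. Egfr, Erbb3 and Errfi1 fell in SIRTintKO livers, by 1.14, 0.93 and 0.33 on the log2 scale, whereas Met had a difference of -0.03 with a 95% interval of -0.36 to 0.29 (0.04 without the 3 libraries that stood apart). In all, 8 of the 10 genes passed the test (adjusted p under 0.05 by edgeR's quasi-likelihood test) in SIRTintKO livers, where 50.2% of all genes passed, and 3 in WT livers, where 34.1% passed. Of the 8, 5 were higher and 3 lower, against 26.2% and 24% of all genes, and the 3 in WT livers were all higher, against 19.5% of all genes. Areg is among the 5, and it came through the filter on low counts (filterByExpr) mainly by its SIRTintKO libraries at 24 hours. With an absolute log2 fold change over 1 required as well, as for the differentially expressed genes (DEGs) of the study, 5 members rose and 1 fell in SIRTintKO livers, where 11.9% of all genes rose and 11.1% fell by this rule. The median log2 fold change of the 5 ligands was 2.10 in SIRTintKO and 2.06 in WT livers, beside 0.04 and 0.02 over all genes. Both are the values of Btc, and without WT library 1 the WT median was 0.45. That of the 4 receptors was -0.48 and -0.34. The medians of the WT ligands were the same with Areg set at its lower bound. Without the 3 libraries that stood apart, 8 members passed in SIRTintKO livers, where 54.6% of 15569 genes then passed, and 5 in WT livers, where 49.7% did.

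Tgfa, which encodes transforming growth factor alpha, was the most abundant ligand. In untreated SIRTintKO livers it was at 10, 15 and 16.3 CPM (lowest, median and highest of 6), and at 24 hours it was at 18.2, 40.6 and 53.7 CPM (of 7), so that the groups did not overlap. The log2 fold change was 1.48 ± 0.216 (SE, adjusted p = 2.2e-06), and 1.64 without the 3 libraries. In WT livers Tgfa was at 12.3, 15.1 and 18.3 CPM at 0 hours and at 13.6, 16.6, 23.7 and 24.3 CPM at 24 hours, and the difference did not pass (log2 0.39 ± 0.242, adjusted p = 0.219). The 2 lower WT values were those of the libraries that stood apart, and without the 3 the WT change was 0.72 (adjusted p = 0.0185).

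Hbegf, the gene of heparin-binding EGF-like growth factor, had the largest change of the 4 ligands for which a fold could be fitted. WT livers held 0.385, 0.753 and 1.31 CPM at 0 hours (lowest, median and highest of 6). At 24 hours the 4 WT libraries held 0.681, 0.846, 11.1 and 26.3 CPM, and SIRTintKO livers went from 0.331, 1.02 and 1.55 to 0.892, 10.1 and 17.2 CPM. In both genotypes the low 24-hour values lay within the untreated range and belonged to the libraries that stood apart. The log2 fold change was 3.63 ± 0.845 in WT (adjusted p = 0.00152) and 3.18 ± 0.776 in SIRTintKO livers (adjusted p = 0.00111), and 4.61 and 3.42 without those 3 libraries. Without WT library 2, which held the highest value, the WT change was 2.41 (adjusted p = 0.041).

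Btc rose from 0.613, 1.32 and 1.56 CPM in untreated WT livers (lowest, median and highest) to 0.995, 1.1, 2.69 and 14.9 CPM at 24 hours. A single library held the highest value, and without it (WT library 1) the WT change of 2.06 ± 0.529 (adjusted p = 0.00343) fell to 0.45 (adjusted p = 0.496). In SIRTintKO livers Btc went from 0.955, 1.45 and 1.64 to 1.97, 6.17 and 9.11 CPM without overlap (log2 2.10 ± 0.479, adjusted p = 0.000591). Leaving out any single library changed this SIRTintKO value to no less than 1.96. Without the 3 libraries the changes were 2.93 (adjusted p = 4.26e-06) in WT and 2.29 (adjusted p = 5.62e-06) in SIRTintKO livers. The WT group at 24 hours then held only the values of 14.9 and 2.69 CPM, so its change still rested on WT library 1.

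Areg was close to absent before surgery. It had 0 counts in all 6 untreated WT libraries, which allows up to 0.0293 CPM over the group, and 1 count in the 6 SIRTintKO libraries together. At 24 hours SIRTintKO libraries had 2 to 32 counts each, or 0.0938, 0.734 and 1.73 CPM (lowest, median and highest). The ratio of pooled CPM was 80.7, with a 95% interval of 14.2 to 3210 that covers counting error only (adjusted p = 0.000206). Areg came through the filter on low counts mainly by its SIRTintKO libraries at 24 hours, so its call there is not independent of that filter. WT libraries at 24 hours had 21, 4, 0 and 0 counts, at least 11.7-fold more in all than the limit of 3 counts over the untreated group (adjusted p = 0.00372, and 0.101 without WT library 1). The 2 libraries at 0 were those that stood apart, and without the 3 the adjusted p was 2.53e-05 in WT and 3.38e-06 in SIRTintKO livers. Only the WT libraries with 21 and 4 counts were then left at 24 hours.

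Hgf was at 1.33, 1.95 and 2.24 CPM in untreated WT livers and at 1.78, 1.99, 3.09 and 3.32 CPM at 24 hours, which did not pass (log2 0.48 ± 0.328, adjusted p = 0.262). In SIRTintKO livers it went from 0.721, 1.41 and 1.8 to 1.64, 3.79 and 7.41 CPM (log2 1.52 ± 0.294, adjusted p = 9.29e-05), with groups that overlapped. Without the 3 libraries the changes were 0.85 (adjusted p = 0.0515) in WT and 1.70 (adjusted p = 6.58e-06) in SIRTintKO livers. Its counts were not whole in 22 of the 34 libraries, as happens where reads are shared out between features, so Hgf levels are less certain than those of the other members. The summed level of 7 stellate cell markers, all detected in every library, was 104 to 203 CPM in SIRTintKO livers at 0 hours and 96.3 to 179 CPM at 24 hours. Of these 7, 1 was higher and 3 were lower at 24 hours in each genotype, with a median log2 change of -0.43 in SIRTintKO and -0.45 in WT livers, and their part in the Hgf result was not tested.

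**Figure D2:**
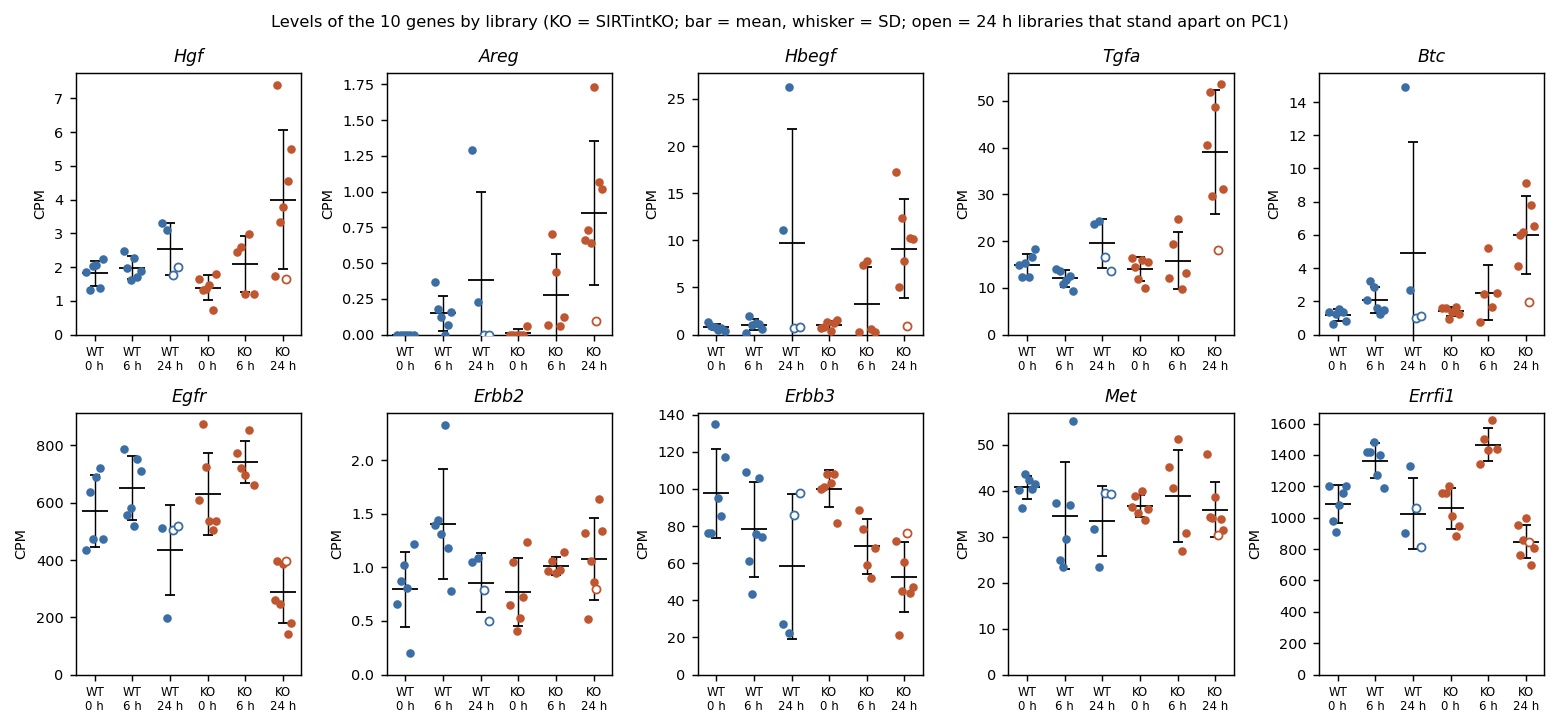
CPM of each of the 10 genes in each library (points), with group means (bars) and SD (whiskers), on linear axes that start at 0, and open points for the 3 libraries at 24 hours that stood apart. In the Tgfa panel the 7 SIRTintKO libraries at 24 hours lie between 18.2 and 53.7 CPM, above all untreated SIRTintKO libraries.

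Among receptors, Egfr was at 505, 573 and 876 CPM in untreated SIRTintKO livers (lowest, median and highest) and at 141, 262 and 396 CPM at 24 hours, with no overlap. The fall was -1.14 ± 0.219 on the log2 scale (adjusted p = 8.88e-05), and it was -1.20 without the 3 libraries. In WT livers Egfr was at 435, 557 and 721 CPM at 0 hours and at 198, 506, 511 and 520 CPM at 24 hours. Only 1 WT library, library 2, lay below the untreated range, and the WT difference did not pass (log2 -0.40 ± 0.256, adjusted p = 0.232, and -0.66 with adjusted p = 0.0907 without the 3).

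Erbb3 encodes a receptor with an impaired kinase that binds neuregulins and pairs with EGFR or ERBB2. In SIRTintKO livers it was at 81.5, 102 and 108 CPM at 0 hours and at 21.2, 47.4 and 76.5 CPM at 24 hours without overlap (log2 -0.93 ± 0.276, adjusted p = 0.00579, and -1.01 without the 3). WT libraries at 24 hours were split, at 22.6 and 27.2 CPM in libraries 2 and 1 and at 85.7 and 97.8 CPM in libraries 3 and 4, against 76, 90.3 and 135 CPM at 0 hours. The WT change of -0.74 ± 0.328 did not pass (adjusted p = 0.0782), but it was -1.94 (adjusted p = 3.4e-05) without the libraries that stood apart.

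Met was at 36.3, 41 and 43.7 CPM in untreated WT livers and at 23.4, 31.7, 39.3 and 39.5 CPM at 24 hours (log2 -0.28, 95% interval -0.66 to 0.10, and -0.53 with adjusted p = 0.0582 without the 3). In SIRTintKO livers it was at 33.7, 36.3 and 40 CPM and then at 30.4, 34.2 and 48 CPM. Erbb2 was at 0.198, 0.838 and 1.22 CPM in untreated WT livers and at 0.498, 0.785, 1.05 and 1.09 CPM at 24 hours (log2 0.09, 95% interval -0.64 to 0.82), which rests on 3 to 19 counts in a library. Without the 3 the Erbb2 difference was 0.45 in WT and 0.60 in SIRTintKO livers. Neither receptor passed at 24 hours in either genotype, with or without the 3.

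Errfi1 fell in SIRTintKO livers from 883, 1090 and 1200 CPM to 700, 848 and 997 CPM at 24 hours (log2 -0.33 ± 0.114, adjusted p = 0.0174), a smaller shift than that of Egfr and with overlapping groups. Without SIRTintKO library 6 at 24 hours this call was lost (-0.25, adjusted p = 0.0716), and without the 3 that stood apart it was -0.29 (adjusted p = 0.0353). WT libraries at 24 hours were at 814, 900, 1060 and 1330 CPM, and the WT difference did not pass (log2 -0.08 ± 0.133, adjusted p = 0.651, and 0.07 without the 3).

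The non-overlapping members in SIRTintKO livers between 0 and 24 hours were Tgfa, Btc and Areg, which were higher, and Egfr and Erbb3, which were lower. These are 5 of 10, and 22% of all tested genes had non-overlapping groups in this comparison. Areg is counted here although it came through the filter on low counts mainly by its SIRTintKO libraries at 24 hours. The plot of single libraries at 24 hours shows how far these levels lay from the untreated mean. Of the 3 libraries that stood apart, WT 3 and 4 had log2 ratios between -0.42 and 0.15 for the 8 genes plotted there, and SIRTintKO 5 between -0.67 and 0.5.

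**Figure D3:**
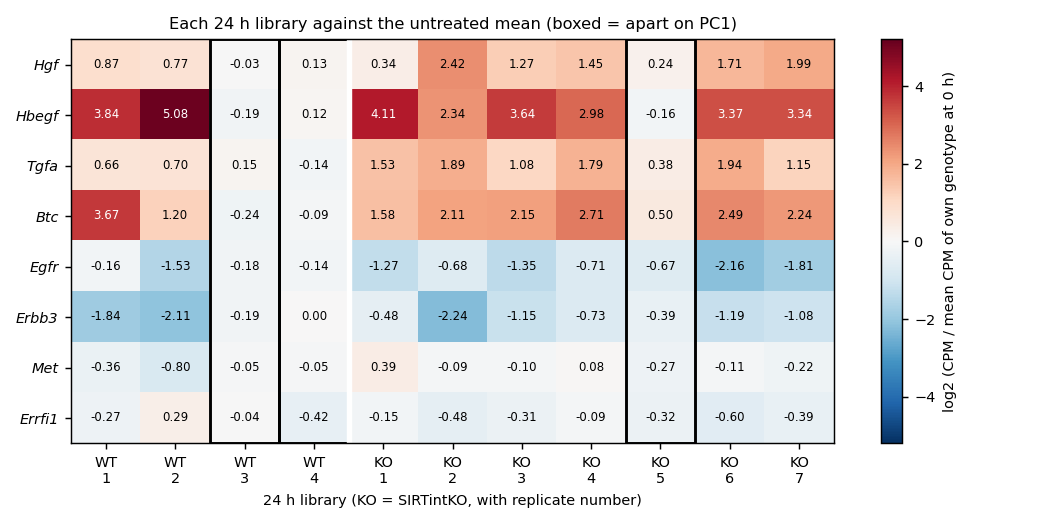
Log2 ratio of each 24-hour library to the mean CPM of the untreated libraries of its own genotype, for 8 of the genes (red higher, blue lower). The 3 boxed libraries stand apart on the first principal component, and their Hbegf ratios of -0.19, 0.12 and -0.16 contrast with 2.34 to 5.08 in the other 8.

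Markers of several cell types also differed between 0 and 24 hours. All 6 neutrophil markers and all 5 monocyte and macrophage markers passed as higher in SIRTintKO livers, while 3 and 2 did so in WT livers. The summed neutrophil level was 4.27 to 21.2 CPM in SIRTintKO livers at 0 hours and 23.3 to 953 CPM at 24 hours, lowest in library 5, which stood apart. In WT livers it was 6.79 to 22.9 CPM at 0 hours and 7.47, 13.7, 90.8 and 111 CPM at 24 hours, the 2 low values again in libraries 4 and 3. The summed monocyte and macrophage level was 4.5 to 8.69 CPM and then 14.3 to 224 CPM in SIRTintKO livers, and 5.17 to 6.33 CPM and then 9.41 to 62.3 CPM in WT livers. Of the 5 tested cholangiocyte markers, 3 passed as higher in SIRTintKO and 2 in WT livers. The sum was 7.75 to 15.2 CPM and then 15.3 to 57.1 CPM in SIRTintKO livers. In WT livers it was 6.66 to 14.3 CPM at 0 hours and 15.9, 17.9, 84.9 and 116 CPM at 24 hours, the 2 low values in libraries 3 and 4. Of 7 markers of sinusoidal endothelium, 5 were lower and 1 higher in SIRTintKO livers, with sums of 154 to 247 CPM and then 77.4 to 149 CPM, and 6 were lower in WT livers, with sums of 143 to 208 CPM and then 54 to 125 CPM. Of 5 Kupffer cell markers, 3 were lower in WT livers (sums of 60.4 to 162 CPM and then 18.2 to 93.8 CPM), and 1 was higher and 1 lower in SIRTintKO livers (101 to 222 CPM and then 75.4 to 273 CPM). Hepatocyte markers summed to 52300 to 74700 CPM in untreated SIRTintKO livers and to 34400 to 66600 CPM at 24 hours, and in WT livers to 59500 to 69700 CPM and then, without overlap, to 26500 to 37000 CPM. In whole liver, fewer cells of a type and less RNA per cell cannot be told apart, and the part of these cells in the ligand and receptor changes was not tested. Without SIRTintKO library 2, which had the highest neutrophil sum, 8 members passed from 0 to 24 hours, where 47.3% of 14942 genes did, and the log2 changes were 1.39 for Tgfa, 3.28 for Hbegf, 2.09 for Btc and 1.31 for Hgf.

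At 6 hours after PHx fewer members passed in SIRTintKO livers than at 24 hours, and Errfi1 and Areg were higher in both genotypes. In WT livers 3 of the 10 members passed and all were higher (Erbb2, Areg and Errfi1), where 37.4% of all genes passed and 18.9% were higher. In SIRTintKO livers 2 passed (Areg and Errfi1, both higher), where 38.4% of all genes passed and 20.9% were higher. The median log2 change of the 5 ligands was 0.43 in WT and 0.86 in SIRTintKO livers, beside 0.02 and 0.01 over all genes.

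Errfi1 rose at 6 hours in both genotypes. WT livers went from 907, 1120 and 1200 CPM (lowest, median and highest) to 1190, 1410 and 1480 CPM (log2 0.33 ± 0.118, adjusted p = 0.0291), a call lost without any 1 of 6 single WT libraries (highest adjusted p = 0.0875). SIRTintKO livers went from 883, 1090 and 1200 CPM to 1340, 1430, 1440, 1500 and 1620 CPM, all above the untreated range (log2 0.46 ± 0.124, adjusted p = 0.00357). This was the only member whose 6-hour groups did not overlap with the untreated ones, in SIRTintKO livers, where 26.2% of all genes had non-overlapping groups. From 6 to 24 hours Errfi1 then fell in both genotypes, by 0.41 on the log2 scale in WT (adjusted p = 0.0326) and by 0.79 in SIRTintKO livers (adjusted p = 2.07e-05). The WT fall did not pass without the 3 libraries (adjusted p = 0.206).

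Areg was detected in 5 of the 6 WT libraries at 6 hours, with 0 to 5 counts and at least 4.88-fold above the limit of 3 counts over the untreated group (adjusted p = 0.0259, and 0.0605 without WT library 1 at 6 hours). SIRTintKO libraries had 1, 10, 7, 1 and 2 counts, a ratio of 24.8 (95% interval 3.99 to 1030, counting error only, adjusted p = 0.0177). The 2 higher values came from libraries 2 and 3. Without library 2 the adjusted p was 0.073, and without both it was 0.306. Hbegf was at 7.39 and 7.8 CPM in the same 2 libraries and at 0.257, 0.299 and 0.607 CPM in the other 3 (log2 1.70 ± 0.809, adjusted p = 0.0964, and -1.37 with adjusted p = 0.314 without both). The 6 cholangiocyte markers summed to 18.7 and 19.2 CPM in these 2 libraries and to 8.07 to 11.1 CPM in the other 3, and neutrophil markers to 12 and 15.2 CPM against 9.16 to 16.7 CPM. Their part in the result was not tested.

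Erbb2 went from 0.198, 0.838 and 1.22 CPM in untreated WT livers to 0.778, 1.35 and 2.33 CPM at 6 hours (log2 0.82 ± 0.317, adjusted p = 0.042). When single libraries were left out, 13 of 34 fits no longer gave that call, with an adjusted p of up to 0.158. Egfr was at 519, 646 and 788 CPM in WT and at 663, 697, 722, 774 and 854 CPM in SIRTintKO livers at 6 hours, within log2 intervals of -0.28 to 0.65 and -0.25 to 0.72 around no change. From 6 to 24 hours Egfr fell in SIRTintKO livers by 1.37 on the log2 scale (± 0.228, adjusted p = 6.69e-05). Egfr and Errfi1 were the 2 members whose groups did not overlap there, as for 8.81% of all genes. In that comparison 4 members passed, Egfr and Errfi1 lower and Hgf and Tgfa higher, where 27.6% of all genes passed, and in WT livers 3 passed (Hbegf and Tgfa higher, Errfi1 lower), where 16.5% did. Of these, Hbegf in WT livers changed by 3.2, and by 1.99 (adjusted p = 0.116) without WT 24-hour library 2. The calls of Hgf in SIRTintKO livers (0.94, adjusted p = 0.0206) and of Tgfa and Errfi1 in WT livers (0.70 and -0.41) were lost in 3, 6 and 12 of the 34 fits without a single library. These comparisons and those with 0 hours share their 24-hour or 6-hour libraries.

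**Figure D4:**
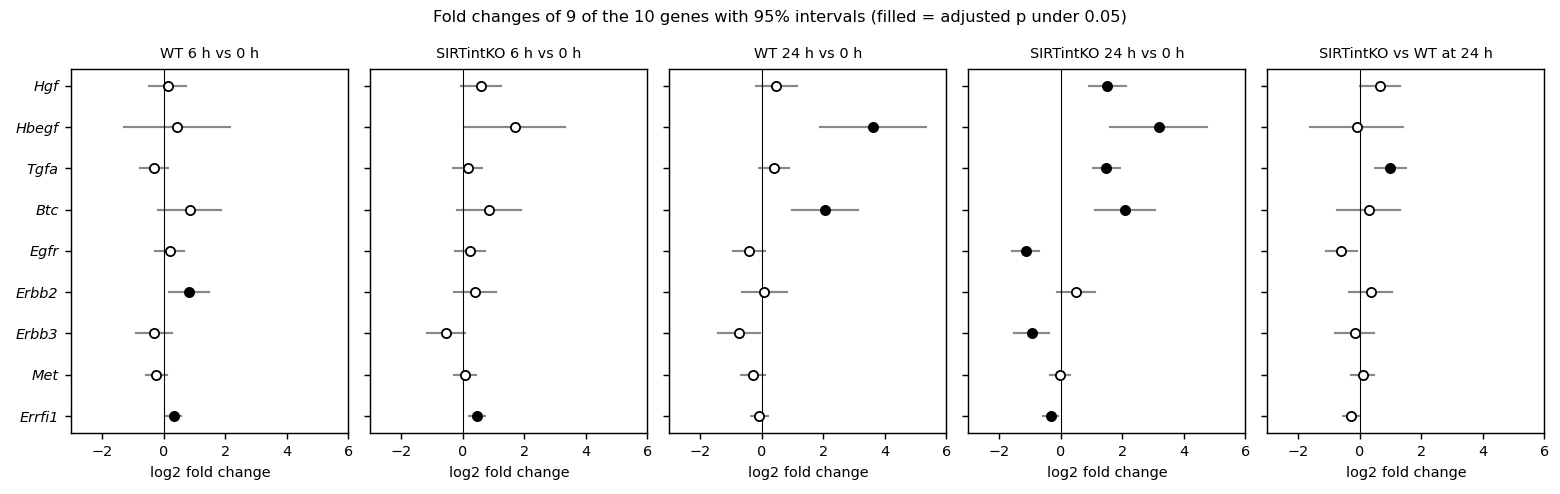
Log2 fold change of 9 of the 10 genes (Areg is left out because its fold rests on untreated libraries at or near 0 counts) with 95% intervals, for 4 comparisons with 0 hours and for SIRTintKO against WT at 24 hours. Filled points passed the test. Tgfa is the one filled point between genotypes, at 1.00.

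Between genotypes, 0 of the 10 members passed before surgery or at 6 hours by edgeR's quasi-likelihood test, as did 0% of all genes. By DESeq2 0 members passed as well. At an unadjusted p under 0.05 in edgeR there were also 0 members, beside 1.07% and 6.52% of all genes. At 24 hours 1 member passed, where 5.81% of all genes did. This was Tgfa, at 39.1 ± 13.3 CPM (SD, n = 7) in SIRTintKO and at 19.5 ± 5.3 CPM (SD, n = 4) in WT livers, with a log2 difference of 1.00 ± 0.243 (95% interval 0.51 to 1.5, adjusted p = 0.0175). The groups overlapped, since SIRTintKO library 5 at 18.2 CPM lay below the 2 higher WT libraries. The call did not hold against a 1.2-fold change (glmTreat, adjusted p = 0.0582) or with only these 2 groups in the fit (adjusted p = 0.259). Nor did it hold without WT libraries 3 and 4 (log2 0.67, adjusted p = 0.115) or without WT library 4 alone (0.86, adjusted p = 0.0522). It held without the 3 libraries that stood apart (0.84, adjusted p = 0.0304), where 17.5% of all genes passed. In the same comparison 3 of 5 monocyte and macrophage markers and 1 of 6 neutrophil markers passed as higher in SIRTintKO livers. So did 1 of 5 Kupffer cell markers, 1 of 5 hepatocyte markers and 1 of the 2 tested intestinal markers. The part of all these cells in the Tgfa difference was not tested.

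The genotype difference in the change from 0 hours was tested as an interaction. For Tgfa it was 1.09 on the log2 scale (95% interval 0.43 to 1.75, adjusted p = 0.175), and 0.92 (adjusted p = 0.0773) without the 3 libraries that stood apart. Hgf gave 1.04 (0.14 to 1.94, adjusted p = 0.321) and Egfr -0.74 (-1.42 to -0.06, adjusted p = 0.349). With edgeR and with DESeq2, 0 members passed for the interaction at 6 or 24 hours. Of all genes, 0% and 0.00668% passed at 6 and 24 hours with edgeR. At an unadjusted p under 0.05 there were 0 members at 6 hours and 3 at 24 hours, beside 3.05% and 12.7% of all genes. The fall of Egfr in SIRTintKO livers, and its WT difference that did not pass, were therefore not shown to differ.

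The other genotype differences at 24 hours did not pass with all libraries, and those of Egfr, Btc and Areg did when a single WT library was left out. Egfr was at 287 ± 107 CPM in SIRTintKO and at 434 ± 157 CPM in WT livers (log2 -0.60, 95% interval -1.09 to -0.10, adjusted p = 0.13), a difference of -0.84 (adjusted p = 0.0366) without WT library 2 and of -0.38 (adjusted p = 0.401) without the 3. Areg was at 0.849 ± 0.504 and 0.38 ± 0.617 CPM (adjusted p = 0.377, 0.0287 without WT library 1 and 0.747 without the 3). Since Areg came through the filter on low counts mainly by these SIRTintKO libraries, its call without WT library 1 is not independent of that filter. Hgf was at 4.00 ± 2.05 and 2.54 ± 0.771 CPM (log2 0.65, 95% interval 0.00 to 1.30, adjusted p = 0.213, and 0.47 with adjusted p = 0.402 without the 3). The intervals for Hbegf (-1.60 to 1.42) and Btc (-0.73 to 1.30) reach more than 1 in at least 1 direction, so differences of that size are not excluded by these numbers of libraries. Btc had a difference of 0.29 with all libraries, of 1.88 (adjusted p = 0.0115) without WT library 1 and of -0.39 (adjusted p = 0.591) without the 3. That of Hbegf was -0.09 with all libraries, 1.12 (adjusted p = 0.434) without WT library 2 and -0.83 (adjusted p = 0.423) without the 3. Met, Erbb2 and Errfi1 had differences of 0.10, 0.36 and -0.28, and of 0.43, 0.11 and -0.39 without the 3. Erbb3 was -0.16 (adjusted p = 0.802) with all libraries and 0.97 (adjusted p = 0.038) without the 3 that stood apart, so its direction between genotypes depended on them. Without the 3, 17.5% of all genes passed in this comparison.

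For each gene, the 6 group means were put in order from high to low. In all 10 genes, the ranges of every pair of neighbouring groups overlapped (5 of 5 pairs), so neighbouring groups in such an order were not separated by their libraries. The ligands Hgf, Areg, Tgfa and Btc had their highest mean in SIRTintKO livers at 24 hours, and Hbegf in WT livers at 24 hours.

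The genes of most similar pattern over the 34 libraries were sought for each member, as the Pearson correlation of log2 CPM, a description over libraries that share time and genotype. For Areg these were Sptlc2 (r = 0.95, and 0.93 after subtraction of group means), Wdr1 (0.93 and 0.87) and Pvr (0.93 and 0.83). They are the highest of 11702 genes compared. Areg had 0 counts in 6 untreated WT and 5 untreated SIRTintKO libraries, where its log2 CPM rests on the prior count of 2. For every member, subtraction of group means leaves the differences between the 24-hour libraries that stood apart and the others. For Btc they were Fosl1 (0.89 and 0.82), which encodes an AP-1 subunit, Ctnna1 and Cd2ap. Tgfa was most like Arpc2 (0.92 and 0.79), an actin-nucleation subunit, and Errfi1 most like Pim3 (0.90 and 0.77), a kinase gene. Hbegf was most like Cacna1b (0.91 and 0.86) and Erbb3 most like Rmc1 (0.91 and 0.86). For Egfr the values were 0.87 and 0.64 with Nat8f2. The highest r was 0.82 for Hgf (Smim3), 0.71 for Erbb2 (Dpep1) and 0.70 for Met (Cldn12).

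Other genes of the pathway were described from lists that set the members in context. Their 24-hour values and tests include the 3 libraries that stood apart. The counts of genes that passed at 24 hours stand beside 26.2% of all genes higher and 24% lower in SIRTintKO livers, and 19.5% higher and 14.6% lower in WT livers. Of the other ErbB ligands and the receptor ERBB4, 5 of 8 were tested. Nrg4, a ligand of ERBB4, rose at 6 hours in both genotypes, from 2.15, 2.93 and 10 to 64.3, 76.4 and 106 CPM in WT livers (lowest, median and highest; log2 4.28 ± 0.348, adjusted p = 1.17e-10). In SIRTintKO livers its mean rose from 3.12 to 75.9 CPM (log2 4.61), and at 24 hours it was at 26.9 CPM in WT and 30.9 CPM in SIRTintKO livers, still higher than at 0 hours. At 24 hours Nrg1, a ligand of ERBB3 and ERBB4, had gone up from 0.148 to 2.65 CPM in WT and from 0.217 to 6.99 CPM in SIRTintKO livers. Ereg, the neighbour of Areg on chromosome 5, was named here after its values were seen. It was at 0.162 CPM in untreated SIRTintKO livers and at 2.49 CPM at 24 hours (adjusted p = 3.37e-05). In WT livers at 24 hours Nrg1 and Nrg4 were the 2 genes of this list that passed as higher, so Ereg did not. Between genotypes at 24 hours 0 genes of this list passed. Erbb4, also named after its values were seen, fell at 24 hours in both genotypes, to 0.17 CPM in WT and 0.196 CPM in SIRTintKO livers.

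Of 4 tested genes for ligand release, 3 rose at 24 hours in each genotype and 1 did not pass. Rhbdf2 and Rhbdf1, which encode the iRhom partners of the sheddase ADAM17, rose by 1.84 and 1.45 on the log2 scale in SIRTintKO livers and by 1.84 and 1.36 in WT livers. The sheddase gene Adam17, named after its values were seen, did not pass (log2 0.21 in SIRTintKO and 0.28 in WT livers). Of the 11 genes for HGF processing and MET relatives, 6 rose and 3 fell in SIRTintKO livers at 24 hours, and 4 rose and 2 fell in WT livers. Plat, a plasminogen activator, was at 0.414 CPM in untreated SIRTintKO livers and at 7.33 CPM at 24 hours (log2 4.12 ± 0.486). Plaur, the receptor of urokinase, rose at 6 and 24 hours in WT livers (log2 1.72 and 3.63) and in SIRTintKO livers (2.34 and 3.94), where it went from 0.133, 0.539 and 0.993 CPM at 0 hours to 1.36, 8.81 and 18.4 CPM at 24 hours without overlap. The receptor-level inhibitors, which include ubiquitin ligases and phosphatases, had smaller shifts, with 5 of 11 higher and 1 lower in SIRTintKO livers at 24 hours. Ptpn1 rose at 6 hours in both genotypes (log2 1.07 in WT and 1.54 in SIRTintKO livers), and Cblb rose in SIRTintKO livers at 6 and at 24 hours (1.05 and 1.22), as did Socs5 at 24 hours (1.15).

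**Figure D5:**
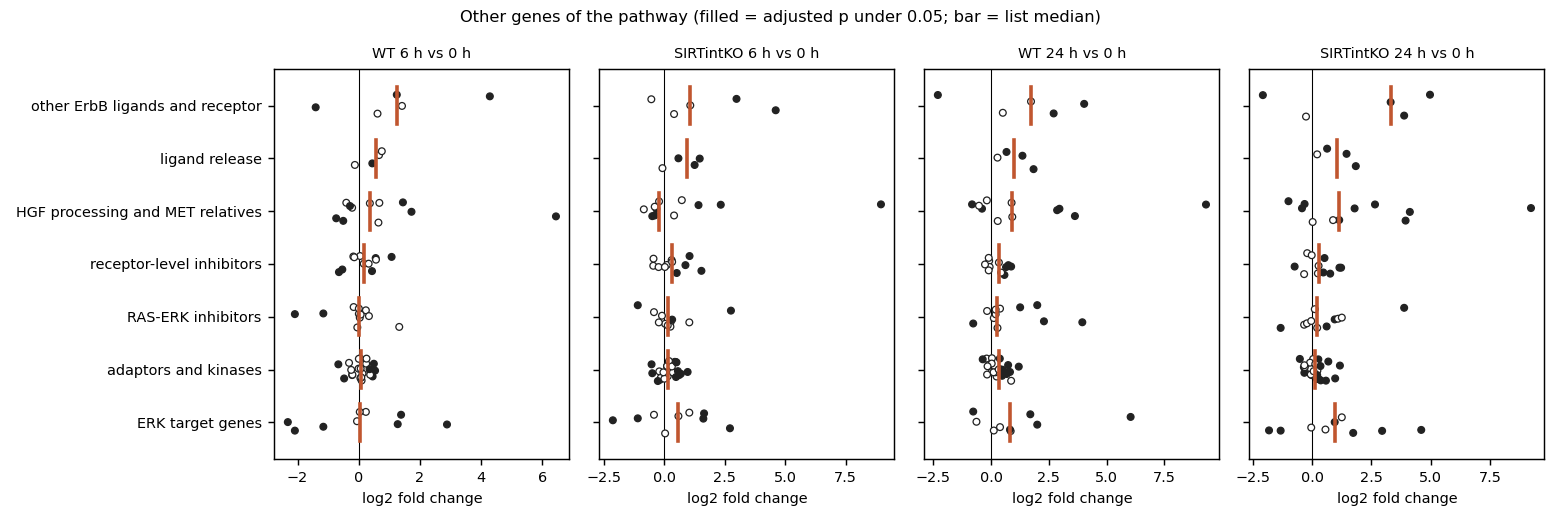
Log2 fold change from 0 hours of every tested gene of the 7 pathway lists, by comparison, with filled points for genes that passed the test and a bar at each list's median. The list of other ErbB ligands and ERBB4 has the highest median of the 7 in SIRTintKO livers at 24 hours, at 3.31.

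Feedback inhibitors and target genes of the RAS-ERK pathway did not move as 1 group. At 24 hours 3 of 11 tested RAS-ERK inhibitors were higher and 1 lower in SIRTintKO livers, and 4 higher and 1 lower in WT livers. Dusp5, a phosphatase for ERK, rose from 1.07 to 15.8 CPM in SIRTintKO and from 1.39 to 21.9 CPM in WT livers (log2 3.88 and 3.95). Spred3, an inhibitor of RAS-ERK signaling, rose in WT livers at 24 hours (2.29). Spry4, a feedback inhibitor, fell at 6 hours by 2.09 in WT and by 1.09 in SIRTintKO livers, and Dusp6 fell at 6 hours in WT livers (log2 -1.16). Among 9 tested ERK target genes, 4 rose and 2 fell in SIRTintKO livers at 24 hours, and 4 rose and 1 fell in WT livers. Etv4 rose to 5.64 CPM in WT and 2.26 CPM in SIRTintKO livers from 0.0775 and 0.0866 CPM. Ccnd1, the gene of cyclin D1, rose from 15 to 115 CPM in SIRTintKO livers (log2 2.95 ± 0.472) and from 14 to 45.4 CPM in WT livers, the latter with adjusted p = 0.00893. Epha2, a receptor tyrosine kinase gene, rose at 6 hours in WT livers (1.38), and Dusp4 at 24 hours in WT livers (2.00). Phlda1 fell at 6 hours in both genotypes and was still lower at 24 hours in SIRTintKO livers (43.1 against 152 CPM). The 23 adaptors and kinases shifted little, with medians of 0.13 and 0.33 in SIRTintKO and WT livers at 24 hours beside 0.04 and 0.02 over all genes, and Gab2, a docking protein of MET and ErbB signaling, rose by 1.17 and 1.2. Between genotypes, 0 of the 70 tested genes of these 7 lists passed at 0, 6 or 24 hours by edgeR's quasi-likelihood test. At an unadjusted p under 0.05 there were 0, 6 and 18 of the 70, beside 1.07%, 6.52% and 23.4% of all genes. By DESeq2 0, 0 and 3 of the 70 passed, and the share of all genes that passed by DESeq2 was not computed. The 3 at 24 hours were Ccnd1, Phlda1 and Pik3r1, the last named after its values were seen. Their adjusted p by DESeq2 lay close below the limit of 0.05, so these calls are marginal. The size and direction of these differences by DESeq2 are not given here. For the interactions at 6 and 24 hours 0 passed as well, with 0 and 0 by DESeq2. At an unadjusted p under 0.05 there were 2 and 7 of the 70, beside 3.05% and 12.7% of all genes.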

How the data were processed

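Gene expression was measured by bulk RNA sequencing of whole liver in 34 libraries (TruSeq stranded mRNA, paired reads of 100 bases). The authors aligned and quantified the reads with nf-core/rnaseq (STAR and Salmon) against GRCm39 and deposited a table of expected counts per gene, 4.97% of which are not whole. The annotation release was not given in the sources used here. Counts were rounded to whole numbers, and 1255 gene symbols that had lost the letter x were restored. Of 35 value columns, 1 matched no sample and was not used. Reads that fit several features are shared out by the quantification, which can move counts between overlapping genes.

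From the deposited counts, the filter filterByExpr kept 14980 of 78298 genes. TMM factors were computed, and 1 mean for each genotype and time was fitted to all libraries with edgeR 4.0.16 (R 4.3.3, quasi-likelihood F test). Genes passed at a Benjamini-Hochberg adjusted p under 0.05 over all tested genes. Errors after ± are SE for log2 fold changes and SD for levels. CPM are TMM-scaled. The labels call the libraries biological replicates. Alternatives were DESeq2 1.42.0, DESeq2 size factors and upper-quartile scaling, other filters, only the groups compared, a replicate block, glmTreat against 1.2-fold, and leaving out each library. Settings that leave out libraries standing apart were chosen after seeing the data. Depth was 14892122 to 23480492 counts per library, and intervals on Areg ratios cover counting error only.

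The members, the pathway and marker lists and the tests were chosen with earlier results of these data known. All 10 members are named. From each pathway list, up to 2 DEGs with the highest and up to 2 with the lowest log2 fold change and a mean of at least 1 CPM are named for each comparison with 0 hours. One gene that this rule names is not reported here. For likeness, the 3 genes of highest r were taken among tested genes with a mean of at least 1 CPM (log2 CPM with a prior count of 2). Promoter sequences are from RefSeq (GRCm38.p6), and 8 of 10 members had an entry that could be used here.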

Additional observations from a re-analysis of the deposited data

Results flagged for a closer look

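Among 59 groups of member values with 4 to 10 libraries, 4 held a library whose gap to its nearest neighbour passed Dixon's 95% critical value, and chance alone marks about 1 group in 20. Egfr in WT library 2 at 24 hours was at 198 CPM, where the nearest of the other 3 was at 506 CPM. Btc in WT library 1 at 24 hours was at 14.9 CPM, with the nearest at 2.69 CPM. Erbb3 in SIRTintKO library 6 at 0 hours was at 81.5 CPM, with the nearest at 99.7 CPM. Areg in the same SIRTintKO library was at 0.0621 CPM, which is 1 count beside 0 counts in the other 5. Over 20 pairs of a member and a time after PHx, 0 had every WT library moved one way and every SIRTintKO library the other way.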

How the results depend on the processing

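With 3, 2, 3, 8, 3 and 4 members passing for WT 6 h, SIRTintKO 6 h, WT 24 h and SIRTintKO 24 h against 0 h, and for WT and SIRTintKO 24 h against 6 h, and 1 between genotypes at 24 h, neither DESeq2, DESeq2 size factors nor upper-quartile scaling moved a count by over 1.5 times. Keeping every gene with at least 1 count left 1 in WT at 6 h and 1 in WT 24 h against 6 h. Requiring 10 counts in every library left 7 members in the fit and 1 call each in WT 6 h, SIRTintKO 6 h and WT 24 h. Against a 1.2-fold change (glmTreat), 1 passed in WT 6 h, 1 in SIRTintKO 6 h, 1 in WT 24 h against 6 h and 0 between genotypes at 24 h. With only the groups compared in the fit, 1 passed in WT 24 h, 0 in WT 24 h against 6 h and 0 between genotypes at 24 h. Where a setting changed a call, the cause was not tested. For these settings the share of all genes that passed was not computed, so the counts of members stand without it.

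The replicate numbers were not shown to pair the libraries. Deviations of same-numbered libraries from their group means had a median r of 0 over 76 pairs (-0.31 to 0.22, with 6 over 0.1). With the replicate block, 1 member passed in WT 24 h against 6 h, and no other count moved by over 1.5 times. The share of all genes that passed was not computed with this block. In this setting 2 values changed sign, Erbb2 in SIRTintKO 24 h against 6 h (-0.08) and Hbegf between genotypes at 24 h (0.48).

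Without WT libraries 3 and 4 at 24 h, 6 members passed in WT 24 h, where 48.9% of all genes did. In WT 24 h against 6 h 6 members passed as well, where 33.1% of all genes did. Signs changed for Errfi1 in WT 24 h (0.05) and, between genotypes at 24 h, for Erbb3 (1.05) and Btc (-0.58). With SIRTintKO library 5 left out as well, 5 members passed in WT 24 h, where 49.7% of all genes did. Between genotypes at 24 h 2 members passed, where 17.5% of all genes did. Against 6 h, 6 passed in WT 24 h and 7 in SIRTintKO 24 h, where 34.4% and 34.6% of all genes did. Signs changed in this setting for Errfi1 in WT 24 h (0.07), Met in SIRTintKO 24 h (0.04), and Erbb3 (0.97) and Btc (-0.39) between genotypes. Without SIRTintKO libraries 2 and 3 at 6 h, 1 member passed in WT 6 h and 1 in SIRTintKO 6 h. Of all genes, 36.5% and 26.3% passed there. Signs then changed in SIRTintKO 6 h for Met (-0.12), Hbegf (-1.37) and Tgfa (-0.29), in SIRTintKO 24 h against 6 h for Met (0.07), and between genotypes at 6 h for Met (-0.01), Hbegf (-1.43), Tgfa (-0.05) and Btc (-0.36).

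Leaving out 1 library at a time gave 0 to 4 members in WT 6 h (0 without WT 6-hour library 1, 4 without library 6), 1 to 2 in SIRTintKO 6 h (1 without SIRTintKO 6-hour library 2), 1 to 4 in WT 24 h (1 without WT 24-hour library 1), 7 to 8 in SIRTintKO 24 h, 1 to 3 and 3 to 5 in WT and SIRTintKO 24 h against 6 h, 0 to 3 between genotypes at 24 h (0 without WT 24-hour library 4, 3 without library 1), and 0 to 1 for the interaction at 24 h (1 without SIRTintKO 24-hour library 5). The share of all genes that passed was not computed for most of these fits, so the counts of members stand without it. Without SIRTintKO 24-hour library 2, 3.44% of all genes passed between genotypes at 24 h, against 5.81% with all libraries. The 3 members without WT 24-hour library 1 include Areg, whose call is not independent of the filter on low counts. Values that changed sign ranged, between genotypes at 24 h, from -0.08 to 1.88 (Btc), -0.42 to 0.21 (Erbb3), -0.52 to 1.12 (Hbegf) and -0.04 to 0.18 (Met). Between genotypes at 6 h they ranged from -0.18 to 0.48 (Btc) and -0.11 to 0.21 (Hgf), and at 0 h from -0.24 to 0.11 (Erbb2), -0.02 to 0.15 (Erbb3) and -0.08 to 0.02 (Errfi1). In WT they were -0.10 to 0.28 (Erbb2) and -0.23 to 0.01 (Errfi1) at 24 h, and -0.37 to 1.58 (Btc) and -0.13 to 0.13 (Met) for 24 h against 6 h. In SIRTintKO livers they were -0.14 to 0.01 (Met) at 24 h, and -0.03 to 0.16 (Met) and -0.05 to 0.27 (Tgfa) at 6 h. Depth limits Areg and Erbb2 most, with 0 to 32 and 3 to 43 counts per library.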
